A study of Mus musculus with 4 samples.

Results

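The Bcl2 family genes described here are Bcl2, Bcl2l1, Bcl2l2, Mcl1, Bcl2l11, Bid, Bad, Bak1, Bmf and Bnip1. They were chosen by gene symbol, with earlier results of these data known. They are 10 of the 23420 genes with a value in each replicate, and all 10 had enough reads to be tested, among 16077 tested genes. Messenger RNA was measured in cochlear cells of Atoh1-GFP transgenic mice on the CD1 background, taken at postnatal day 1. In these mice an Atoh1 enhancer drives GFP in hair cells, the mechanosensory cells of the inner ear. Some supporting cells also carry weak GFP, and weakly fluorescent cells were gated out. Every cochlea was kept overnight as an explant under 5% O2 and 5% CO2 in medium with penicillin. Some organs then received the aminoglycoside antibiotic gentamicin at 0.5 mM for 3 h, and the control organs received none. The organs were dissociated and sorted into GFP-positive hair cells and GFP-negative non-hair cells. The 4 groups were thus control hair cells, gentamicin-treated hair cells, control non-hair cells and gentamicin-treated non-hair cells, with 3 replicates in each. The non-hair cells are a mixture of supporting cells, other epithelial cells of the cochlear duct and cells of the surrounding tissue, so their values are averages over cell types.

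Proteins of the Bcl2 family decide whether the outer membrane of the mitochondrion is opened and cytochrome c is released, which starts the caspase cascade of intrinsic apoptosis. Mcl1, Bcl2l1 (Bcl-xL), Bcl2l2 (Bcl-w) and Bcl2 are the anti-apoptotic members, which bind and hold their pro-apoptotic relatives. Bak1 is an effector that forms pores in the outer membrane. Bcl2l11 (Bim), Bid, Bad and Bmf are BH3-only proteins, the sensors that neutralize the anti-apoptotic members or activate the effectors. Bnip1 carries a BH3-like stretch, but is known mainly as a SNARE protein of the endoplasmic reticulum in vesicle transport. Many of these proteins are controlled by phosphorylation, cleavage or rapid degradation, which RNA levels do not show. Aminoglycosides kill cochlear hair cells in large part through intrinsic apoptosis.

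The promoters of the members whose RNA differed with gentamicin in hair cells are shown first, together with that of Bcl2l11, which held a FOXO match. Each line gives the 250 bases before a RefSeq transcription start on GRCm38.p6, read 5′ to 3′ on the strand of the gene. Capitals mark letter matches, on either strand, to a GC box, an ETS motif, an E box, a CCAAT box or a FOXO motif, which are spelled out after the sequences. The windows are chr3:95658471-95658720 for Mcl1, chr17:26780829-26781078 for Bnip1, chr14:54883175-54883424 for Bcl2l2 and chr2:128125788-128126037 for Bcl2l11, all on the plus strand.
Mcl1: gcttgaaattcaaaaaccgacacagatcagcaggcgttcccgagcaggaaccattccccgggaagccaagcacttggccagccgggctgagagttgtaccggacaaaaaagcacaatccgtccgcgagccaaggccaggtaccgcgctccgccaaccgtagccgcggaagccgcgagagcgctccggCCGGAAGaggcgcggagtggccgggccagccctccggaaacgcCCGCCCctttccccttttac
Bnip1: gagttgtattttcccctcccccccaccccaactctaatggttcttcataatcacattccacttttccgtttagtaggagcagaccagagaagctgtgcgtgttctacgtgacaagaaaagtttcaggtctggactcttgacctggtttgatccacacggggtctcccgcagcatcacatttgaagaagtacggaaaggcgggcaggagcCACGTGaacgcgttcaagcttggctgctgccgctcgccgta
Bcl2l2: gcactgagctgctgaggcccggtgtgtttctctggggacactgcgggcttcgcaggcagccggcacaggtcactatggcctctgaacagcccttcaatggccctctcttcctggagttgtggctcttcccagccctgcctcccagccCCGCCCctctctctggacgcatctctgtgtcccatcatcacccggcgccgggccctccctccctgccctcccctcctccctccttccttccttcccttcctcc
Bcl2l11: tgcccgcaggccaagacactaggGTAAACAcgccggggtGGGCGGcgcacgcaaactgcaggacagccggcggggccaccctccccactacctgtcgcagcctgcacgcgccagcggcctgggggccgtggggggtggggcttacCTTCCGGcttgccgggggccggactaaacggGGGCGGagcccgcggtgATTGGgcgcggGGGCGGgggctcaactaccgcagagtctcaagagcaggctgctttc

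RefSeq promoters were found for all 10 members, with 16 windows in all. The FOXO motif (GTAAACA) was in 1 of the 16 windows, that of Bcl2l11, and in 3.17% of the 32851 promoters of the mouse genome table. Neither the AP-1 motif (TGACTCA or TGAGTCA), the site bound by Jun and its partners, nor the cyclic AMP response element (TGACGTCA) was found in a member window. These motifs were in 4.46% and 1.55% of all promoters. The GC box (GGGCGG) was in 7 of the 16 windows against 32.7% of all promoters. The CCAAT box, which is those letters, was in 5 windows against 33.8%. The ETS motif (CCGGAAG) was in the windows of Mcl1 and Bcl2l11 and in 6.91% of all promoters. The E box (CACGTG) was in the Bnip1 window and in 6.02% of all promoters. The last 4 motifs were chosen after the sequences and the values had been seen. A letter match is a description and not a binding site, and a window without one says nothing about the factor elsewhere.

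Levels are given as the deposited normalized read score, which is the number of reads on a gene scaled per replicate with 1 added. Reads on genes, estimated from these scores, came to 22399316–28150715 per replicate. The populations were checked against markers of hair cells, mesenchyme and supporting cells. The summed score of 8 hair cell markers was 10954–11362 in control hair cells and 211–245 in control non-hair cells, and all 8 were higher in hair cells. The summed score of 5 mesenchyme markers was 174–440.4 in control hair cells and 4728–6486 in control non-hair cells. The summed score of 6 supporting cell markers was not higher in non-hair cells, at 1179–1366 in control hair cells and 652–1103 in control non-hair cells, and of the 6 genes 1 was higher and 1 lower in hair cells. A gene is said to have risen or fallen with gentamicin, or to be higher or lower in a population, where the unadjusted p of the limma fit was under 0.01 and the fold change above 1.2 in either direction. All adjusted p-values cover all 16077 tested genes. In sorted bulk samples, fewer cells of a type and less RNA per cell cannot be told apart.

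In gentamicin-treated hair cells 3 of the 10 genes met these criteria. Bnip1 and Mcl1 rose 1.5-fold and 1.41-fold, and Bcl2l2 fell 1.32-fold. Of all tested genes 27.5% met the criteria in this comparison, 12.7% as higher and 14.8% as lower, so the share among the members is near that of all genes. The median log2 difference was -0.15 over the members and -0.09 over all tested genes. The replicates of treated and control hair cells did not overlap for 5 members, these 3 with Bak1 and Bid, and for 54.8% of all tested genes. With scaling by total reads the genes called higher and lower in all numbered 2774 and 1591, against 2037 and 2381 as deposited, and of the members Bad alone changed the sign of its difference, to 0.06.

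**Figure D1:**
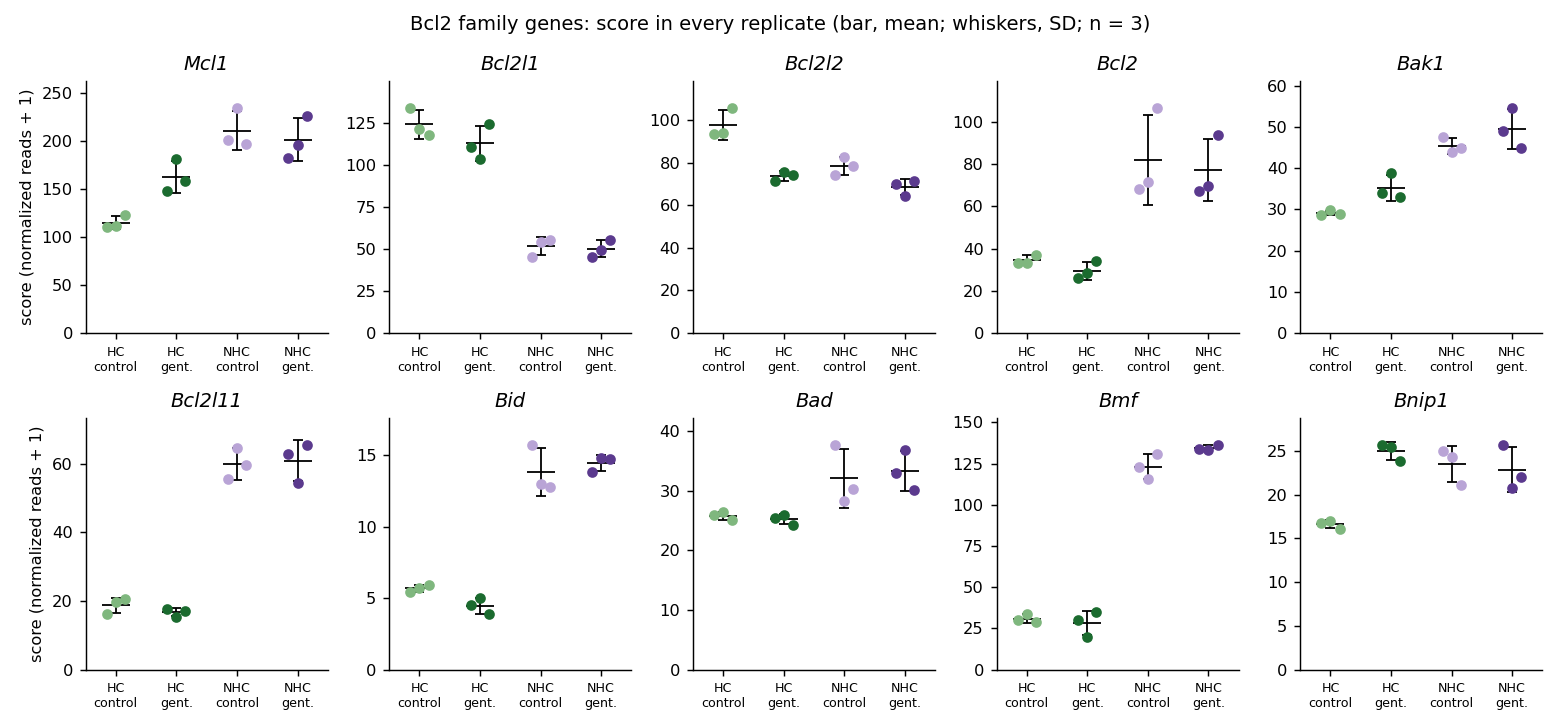
Normalized read scores of the 10 Bcl2 family genes in each replicate of the 4 groups (HC, hair cells; NHC, non-hair cells; gent., 0.5 mM gentamicin for 3 h). Points are replicates, bars are means and whiskers are SD (n = 3); the treated hair cell points of Mcl1 and Bnip1 lie above, and those of Bcl2l2 below, all control hair cell points.

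Mcl1 (ENSMUSG00000038612.16, chr3:95658788-95663176, plus strand) encodes a short-lived anti-apoptotic protein whose amount depends on continuous synthesis. Its score in hair cells was 110.4, 112 and 123 without gentamicin and 148, 181 and 158 with it. Every treated replicate was above every control. The mean rose from 115 ± 6.71 (SD, n = 3) to 163 ± 16.6 (SD, n = 3), at a log2 difference of 0.50, standard error 0.10, limma adjusted p = 0.00413, with a 95% interval of 0.27 to 0.72 for the log2 difference. In non-hair cells its score was 201, 234 and 197 in controls and 183, 196 and 226 with gentamicin, and these groups overlapped (log2 difference -0.07, standard error 0.10, limma adjusted p = 0.779). All treated hair cell scores were still below all non-hair cell scores. The difference between the responses was 0.56 on the log2 scale (limma adjusted p = 0.0285). That call was lost in 6 of the 12 fits that left out 1 replicate and kept in 6, with log2 values of 0.49 to 0.65 over all of them. Its adjusted p was 0.0675 without control hair cell replicate 1 and 0.0704 without control hair cell replicate 2, at log2 values of 0.54 and 0.55. Without treated hair cell replicate 2 or control non-hair cell replicate 2 it was 0.0679 and 0.0655, both at 0.49. Without treated non-hair cell replicates 1 and 2 in turn it was 0.0655 and 0.0531, at 0.50 and 0.55. The rise in hair cells itself met the criteria in each of the 6 fits that left out 1 replicate, at 0.42 to 0.56.

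Bcl2l1 (ENSMUSG00000007659.18, chr2:152780668-152831728, minus strand) encodes Bcl-xL, the anti-apoptotic member on which many neurons depend. It had scores of 134, 121 and 118 in hair cell controls and 111, 104 and 124 after gentamicin, and the groups overlapped (log2 difference -0.14, standard error 0.10, limma adjusted p = 0.326). Its interval of -0.37 to 0.09 leaves out a fall as large as that of Bcl2l2 in the fitted mean. Its scores in non-hair cells were 45.5, 54.3 and 55.5 without and 45.5, 49.4 and 55.4 with the drug, with no call there (log2 difference -0.05, standard error 0.10, limma adjusted p = 0.86).

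Bcl2l2 (ENSMUSG00000089682.10, chr14:54883377-54888234, plus strand) encodes Bcl-w, an anti-apoptotic protein found in the nervous system. Its score was 93.5, 94.01 and 106 in hair cell controls and 71.2, 75.9 and 74.1 after gentamicin, with every treated replicate below every control. The mean fell from 97.8 ± 6.92 (SD, n = 3) to 73.7 ± 2.32 (SD, n = 3), at a log2 difference of -0.40, standard error 0.07, limma adjusted p = 0.00169. In non-hair cells the scores were 74.2, 82.8 and 78.3 and 70.2, 64.5 and 71.6. These groups did not overlap either, but the difference did not meet the criteria (log2 difference -0.19, standard error 0.07, limma adjusted p = 0.215). The responses of the populations were not shown to differ (log2 value -0.21, 95% interval -0.44 to 0.01, limma adjusted p = 0.176). The annotation has a read-through transcript, Gm20521, on the same strand across this locus, and it has no row of its own among the genes measured.

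Bcl2 (ENSMUSG00000057329.7, chr1:106538178-106714274, minus strand), the founding anti-apoptotic member, had scores of 33.03, 33.2 and 37.2 in hair cell controls and 25.9, 28.2 and 34.3 after gentamicin. The groups overlapped (log2 difference -0.23, standard error 0.18, limma adjusted p = 0.341). Its scores were 68.2, 71.4 and 107 in control and 67.5, 69.8 and 93.9 in treated non-hair cells (log2 difference -0.08, standard error 0.18, limma adjusted p = 0.864). Replicate 3 was highest in each of the 4 groups. With the replicate number as a block the difference in hair cells was again -0.23 and was not called (limma adjusted p = 0.0707). An antisense gene, D630008O14Rik, overlaps Bcl2, and the strand setting of the counting is not given in the sources used here.

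**Figure D2:**
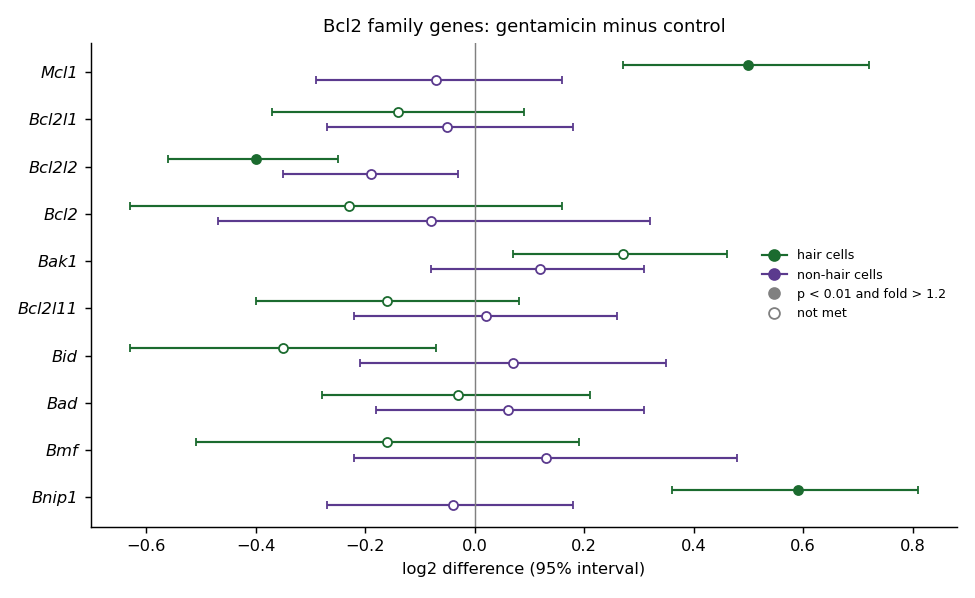
Log2 difference between gentamicin and control with its 95% interval for each Bcl2 family gene, in hair cells and in non-hair cells (n = 3 per group). Filled points met the criteria; these are Mcl1, Bcl2l2 and Bnip1 in hair cells, and none in non-hair cells.

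Among the pro-apoptotic members Bak1, Bid, Bcl2l11, Bad and Bmf no gene met the criteria in either population. Bnip1, which rose in hair cells and carries a BH3-like stretch, is not counted among them here. The effector Bak1 (ENSMUSG00000057789.14, chr17:27019810-27029009, minus strand) came nearest. Its score was 28.7, 29.8 and 28.97 in hair cell controls and 33.9, 38.8 and 32.9 after gentamicin, without overlap (log2 difference 0.27, standard error 0.09, limma adjusted p = 0.0372, unadjusted p = 0.011). At an adjusted p under 0.05, without a fold threshold, Bak1 joined the 3 genes above, making 4 of 10 members against 33.2% of all tested genes. Bak1 met the criteria with scaling by total reads (log2 difference 0.36), with median-of-ratios scaling (0.28), with no minimum of reads (0.27), with the replicate block (0.27) and without treated hair cell replicate 3 (0.32). It did not with quantile normalization (0.25) or without treated replicates 1 (0.29) and 2 (0.20) in turn. Nor did it without control hair cell replicates 1 (0.26), 2 (0.28) and 3 (0.26). With quantile normalization and without each of these replicates its adjusted p was also above 0.05, up to 0.143 by limma. Bak1 also missed the criteria with an offset of 0.1, with a minimum of 1000 reads and at a fold change above 1.5. The same held in a fit without a trend and when only the hair cell groups were fitted. In non-hair cells it was 47.6, 43.98 and 44.8 without and 49.1, 54.6 and 44.8 with the drug, and the groups overlapped. Bak1 shares its locus with Ggnbp1 on the other strand, whose log2 difference in hair cells was -0.58 (limma adjusted p = 0.0633).

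Bid (ENSMUSG00000004446.12, chr6:120891930-120916853, minus strand), which carries death receptor signals to mitochondria once a caspase has cut it, had the lowest scores of the 10. They were 5.43, 5.7 and 5.93 in hair cell controls and 4.5, 5.02 and 3.92 after gentamicin (log2 difference -0.35, standard error 0.13, limma adjusted p = 0.0554). The treated replicates lay below all controls, on a mean of 106 estimated reads per control replicate and 88 per treated one. The difference met the criteria without treated hair cell replicate 2 (log2 difference -0.44) and in a fit without a trend (-0.35). It was smaller with quantile normalization (-0.09) and without treated hair cell replicate 3 (-0.26), and was not called there. Non-hair cells had 15.8, 13.00 and 12.8 and 13.8, 14.8 and 14.8, which overlapped. Bid overlaps Bcl2l13 on the other strand, whose log2 difference in hair cells was 0.23 (limma adjusted p = 0.0612).

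Bcl2l11 (ENSMUSG00000027381.16, chr2:128126038-128162547, plus strand) encodes Bim, a potent activator of the effectors that is often induced by stress kinases and FOXO factors. Its score was 16.3, 19.6 and 20.5 in hair cell controls and 17.7, 15.5 and 17.2 after gentamicin, with overlapping groups (log2 difference -0.16, standard error 0.11, limma adjusted p = 0.296). Its 95% interval of -0.40 to 0.08 leaves no room for a rise as large as that of Mcl1 in the fitted mean. Non-hair cells had 55.5, 64.6 and 59.7 in controls and 62.9, 54.3 and 65.5 with gentamicin.

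Bad (ENSMUSG00000024959.14, chr19:6941861-6951899, plus strand), a BH3-only protein that survival kinases inactivate by phosphorylation, was at nearly the same level with and without the drug. It had 25.9, 26.4 and 25.1 in hair cell controls and 25.4, 25.9 and 24.3 after gentamicin (log2 difference -0.03, standard error 0.11, limma adjusted p = 0.857), with a 95% interval of -0.28 to 0.21. Its scores in non-hair cells were 37.7, 28.2 and 30.2 and 32.97, 36.8 and 30.1, and the groups overlapped. Gpr137, on the other strand at its start, fell in treated hair cells (log2 difference -0.27, limma adjusted p = 0.0151).

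Bmf (ENSMUSG00000040093.15, chr2:118528757-118549687, minus strand), a BH3-only protein tethered to the cytoskeleton, had a treated hair cell replicate on either side of the controls. Its scores were 30.3, 34.01 and 28.7 in hair cell controls and 30.1, 20.1 and 34.8 after gentamicin (log2 difference -0.16, standard error 0.16, limma adjusted p = 0.463). Treated replicate 2 was the low one and replicate 3 the high one. Without treated replicate 2 the log2 difference turned to 0.07. In non-hair cells the scores were 123, 116 and 131 and 134, 133 and 136, with every treated replicate above every control, but the criteria were not met (log2 difference 0.13, standard error 0.16, limma adjusted p = 0.71).

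Bnip1 (ENSMUSG00000024191.15, chr17:26781066-26792565, plus strand), the SNARE protein, had the highest fold change of the 10 in hair cells. Its score was 16.8, 16.9 and 16.1 in hair cell controls and 25.6, 25.5 and 23.8 after gentamicin, a rise of the mean from 16.6 ± 0.439 (SD, n = 3) to 24.97 ± 1.04 (SD, n = 3), at a log2 difference of 0.59, standard error 0.10, limma adjusted p = 0.00158. The groups lay well apart, and each left-out replicate gave a log2 difference between 0.57 and 0.62. In non-hair cells it was 25.01, 24.3 and 21.1 in controls and 25.7, 20.7 and 21.98 with the drug (log2 difference -0.04, standard error 0.10, limma adjusted p = 0.864). Treated hair cells thus overlapped the non-hair cells in their Bnip1 score. The difference between the responses was 0.63 on the log2 scale (limma adjusted p = 0.0174), and the adjusted p was under 0.05 in each of the 12 fits that left out 1 replicate.

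In non-hair cells 0 of the 10 members met the criteria by limma, against 5.44% of all tested genes, and 1, Bcl2l2, had an unadjusted p under 0.05. The fitted log2 differences ran from -0.19 for Bcl2l2 to 0.13 for Bmf. The replicates did not overlap for Bcl2l2 and Bmf, 2 of 10 members against 17.8% of all tested genes. The responses of hair cells and non-hair cells differed at an adjusted p under 0.05 for Mcl1 and Bnip1, 2 of 10 members against 13.4% of all tested genes. For the other 8 members the difference was not shown, and its interval was widest for Bcl2 at -0.71 to 0.40.

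Markers of other cells also differed between treated and control hair cells, a comparison in which 14.8% of all tested genes fell and 12.7% rose. Of 6 supporting cell markers 2 fell, and their summed score in hair cells was 1179–1366 without and 541–1008 with gentamicin. Of 5 mesenchyme markers 2 fell, with sums of 174–440.4 and 89.03–142. Of 5 Schwann cell markers 2 fell, with sums of 222–266 and 114–189.5, and of 5 endothelial markers 1 fell, with sums of 12.3–21.1 and 6.6–11.5. Of 6 macrophage markers 1 rose, with sums of 4.61–5.3 and 14.97–21.5, and 1 was below 3 reads in every control hair cell replicate. None of the 8 hair cell markers and of the 3 measured red blood cell markers met the criteria. Hair cell marker sums were 10954–11362 and 9314–10457, and red blood cell sums were 0.599–2.14 and 0.412–13.9. In treated non-hair cells 1 endothelial marker rose and no other marker met the criteria, against 5.44% of all tested genes. The part of these cells in the results was not tested.

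Without the drug, 9 of the 10 members differed between hair cells and non-hair cells, against 65.8% of all tested genes. Hair cells had more Bcl2l1 and Bcl2l2, 2 of 10 members against 28.1% of all tested genes called higher. They had less Bmf, Bcl2l11, Bid, Bcl2, Mcl1, Bak1 and Bnip1, 7 of 10 against 37.7% called lower. The control groups did not overlap for any of the 10 members, as for 79.2% of all tested genes. The median log2 difference was -0.76 over the members and -0.12 over all tested genes, and with median-of-ratios scaling the median of all genes was -0.01.

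Bcl2l1 was 2.4-fold higher in control hair cells, at 124 ± 8.52 (SD, n = 3) against 51.8 ± 5.46 (SD, n = 3) (log2 difference 1.27, standard error 0.10, limma adjusted p = 5.04e-07). Bcl2l2, the other anti-apoptotic member in excess in hair cells, was 1.25-fold higher (log2 difference 0.32, standard error 0.07, limma adjusted p = 0.00172), a call that was lost with quantile normalization (log2 difference 0.21) and without control hair cell replicate 3 (0.26). Bcl2 and Mcl1 were 2.33-fold and 1.83-fold lower in hair cells, with log2 differences of -1.22 and -0.87 (limma adjusted p = 6.56e-05 and 1.14e-05).

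Of the BH3-only members, Bmf, Bcl2l11 and Bid were lower in hair cells and Bad was not called. Bmf and Bcl2l11 differed by more than any other member, and Bid by about as much as Bcl2l1 was higher. Hrk and Bbc3, BH3-only genes that are not members, were named after their values were seen. Hrk was higher in hair cells (log2 difference 2.58, limma adjusted p = 4.01e-07) and Bbc3 was lower (-0.75, limma adjusted p = 0.00267). Bmf was 3.97-fold lower in control hair cells, at 31.01 ± 2.71 (SD, n = 3) against 123 ± 7.48 (SD, n = 3) (log2 difference -1.99, standard error 0.16, limma adjusted p = 4.06e-07). Bcl2l11 was 3.2-fold lower (log2 difference -1.68, standard error 0.11, limma adjusted p = 8.53e-08), and Bid was 2.42-fold lower (log2 difference -1.28, standard error 0.13, limma adjusted p = 2.82e-06). For Bmf, Bcl2l11 and Bid, all hair cell replicates, treated or not, were below all non-hair cell replicates. Bak1 was 1.56-fold lower (log2 difference -0.64, standard error 0.09, limma adjusted p = 4.18e-05). Bad did not meet the criteria (log2 difference -0.30, standard error 0.11, limma adjusted p = 0.0273), except without control non-hair cell replicate 2 (log2 difference -0.39). Bnip1 was 1.41-fold lower (log2 difference -0.50, standard error 0.10, limma adjusted p = 0.000944), which quantile normalization took below the criteria (-0.24). Beside these differences stand the marker sums given above, with mesenchyme markers of 174–440.4 in hair cells and 4728–6486 in non-hair cells. A difference here compares sorted populations, and the part of each non-hair cell type in it was not tested.

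**Figure D3:**
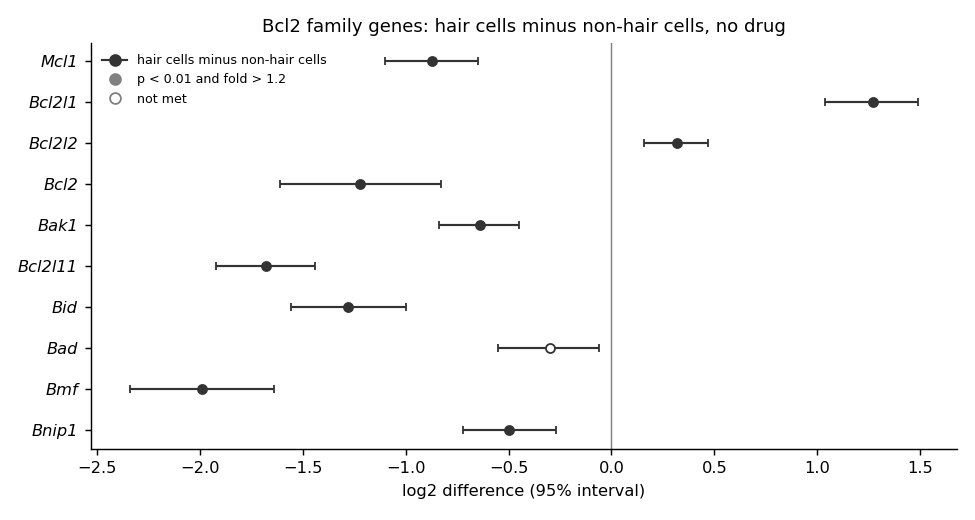
Log2 difference of hair cells from non-hair cells, both without the drug, with its 95% interval for each Bcl2 family gene (n = 3 per group). Bcl2l1 and Bcl2l2 lie to the right of 0 and the other genes to the left, with Bmf and Bcl2l11 farthest; the open point, Bad, did not meet the criteria.

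Levels of different genes were set side by side after division by length, as the score less its offset of 1 per kilobase of merged exons. In control hair cells the order was Mcl1 at 33.4 ± 1.96, Bcl2l1 at 26.9 ± 1.86 and Bcl2l2 at 21.7 ± 1.55 (SD, n = 3), all anti-apoptotic. Then came Bak1 at 11.7 ± 0.24, Bad at 9.68 ± 0.263 and Bmf at 5.71 ± 0.516, and after them Bcl2 at 3.66 ± 0.256, Bnip1 at 3.06 ± 0.0859, Bcl2l11 at 2.22 ± 0.278 and Bid at 1.32 ± 0.0707. No neighbours in this order overlapped between replicates. The order depends on the length used. By the longest transcript 6 of the 10 genes held their rank and Bcl2l1 stood above Mcl1.

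In treated hair cells the first 6 ranks were the same, with Mcl1 at 47.3 ± 4.86 per kilobase, and Bnip1 at 4.69 ± 0.203 stood above Bcl2. Its range overlapped that of Bmf. In control non-hair cells Mcl1 led at 61.4 ± 5.99, followed by Bmf at 23.2 ± 1.42. By merged exons a BH3-only gene thus stood where Bcl2l1 stood in hair cells. Bak1 and Bcl2l2 followed with overlapping replicates, and Bcl2l1 was sixth at 11.1 ± 1.19, overlapping Bad above it and Bcl2 below it. Treated non-hair cells had the same order. By the longest transcript Bmf was again at rank 2 in control non-hair cells, but Bcl2l1 was at rank 1 in control hair cells and at rank 5 in control non-hair cells. In treated hair cells Bnip1 was then at rank 6, above Bmf.

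Shares within a replicate do not depend on how that replicate was scaled, but they do depend on the gene lengths. Of the summed level per kilobase of the 4 anti-apoptotic genes, Mcl1 held 37.6–40.3% in control hair cells and 49.5–55.5% in treated hair cells. Bcl2l1 held 28.7–33.98% and 23.6–28.9%, and Bcl2l2 held 24.3–26.5% and 17.6–18.4%. In treated hair cells Mcl1 thus made up a larger part of the anti-apoptotic RNA in each replicate than in any control replicate. With Mcl1 called higher, Bcl2l2 called lower and neither Bcl2l1 nor Bcl2 called, this largely restates the calls above. By the longest transcript, an alternative added after the data were seen, Bcl2l1 held the largest share in control hair cells, 39.99–45.98% against 28.5–31.4% for Mcl1, and in treated hair cells they held 34.4–40.7% and 39.1–45.4%. The Mcl1 share was again higher in each treated replicate than in any control. In non-hair cells Mcl1 held 58.5–64.5% without and 62.1–63.8% with gentamicin. The share of Bcl2 was 4.11–4.47% in control hair cells and 7.25–11.8% in control non-hair cells.

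**Figure D4:**
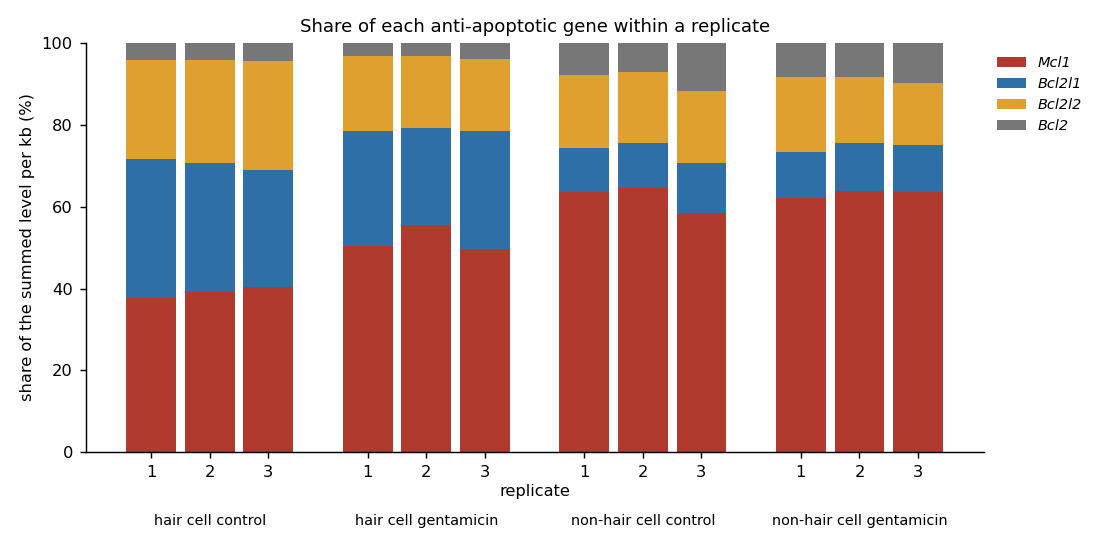
Share of Mcl1, Bcl2l1, Bcl2l2 and Bcl2 in their summed level per kilobase in each of the 12 replicates, with levels per kilobase of merged exons. The Mcl1 share is 37.6–40.3% in control hair cells, 49.5–55.5% in treated hair cells and 58.5–64.5% in control non-hair cells.

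The ratio of Mcl1 to Bcl2l2, per kilobase, was 1.52–1.56 in control hair cells and 2.74–3.14 in treated ones. In non-hair cells it was 3.31–3.73 and 3.43–4.16, with overlap. The ratio of Mcl1 to Bcl2l1 in hair cells was 1.11–1.4 without and 1.71–2.35 with gentamicin, and 4.83–6.03 in control non-hair cells. The groups of hair cells were separate in both ratios. For Mcl1 to Bcl2l2 this follows from the calls of these genes in opposite directions and adds nothing to them. The ratios of Mcl1 to Bcl2l1 and to Bcl2 hold the same rise of Mcl1. Control and treated hair cells overlapped in the ratio of Bcl2l1 to Bcl2l2 (1.08–1.4 and 1.33–1.64) and of Bcl2l1 to Bcl2 (6.43–8.28 and 7.39–8.78). They were separate for Mcl1 to Bcl2 (9.01–9.22 and 12.7–17.7) and Bcl2l2 to Bcl2 (5.92–5.94 and 4.5–5.79). By the longest transcript the ratio of Mcl1 to Bcl2l1 was below 1 in control hair cells, at 0.619–0.785, and 0.96–1.32 with gentamicin, again without overlap, and 2.7–3.38 in control non-hair cells.

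The 5 pro-apoptotic genes Bcl2l11, Bid, Bad, Bmf and Bak1 together had 0.341–0.383 times the summed level of the 4 anti-apoptotic genes in control hair cells and 0.338–0.372 times in treated hair cells. These ranges overlapped. In non-hair cells the ratio was 0.582–0.737 without and 0.648–0.807 with the drug, above every hair cell replicate. Taken singly, the ratio to the anti-apoptotic sum was 0.0597–0.0757 for Bmf in control hair cells and 0.206–0.252 in control non-hair cells. For Bcl2l11 it was 0.0223–0.0279 and 0.0737–0.0748. For Bad the ranges of the populations overlapped, at 0.106–0.12 and 0.101–0.156. The sum of 5 leaves out pro-apoptotic genes that are not members, so it is not the whole pro-apoptotic RNA. Of these, Hrk was higher in control hair cells than in control non-hair cells (log2 difference 2.58). Bok (-1.98), Bbc3 (-0.75) and Bax (-0.29) were lower. These are ratios of RNA and not of protein.

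Other genes of the family and of the pathway were read from fixed lists. Of 19 further Bcl2 family genes 15 had enough reads, and in treated hair cells 0 rose and 2 fell by limma, against 12.7% and 14.8% of all tested genes, and 5 had an unadjusted p under 0.05. The 2 were Bok, an effector relative, from 2.76 ± 0.557 (SD, n = 3) to 1.91 ± 0.152 (SD, n = 3), at a log2 difference of -0.51, standard error 0.16, limma adjusted p = 0.0306, and Bcl2l12, an atypical member, from 5.96 ± 0.267 (SD, n = 3) to 4.38 ± 0.592 (SD, n = 3), at a log2 difference of -0.45, standard error 0.14, limma adjusted p = 0.029. Each of these calls was lost in 5 of the 6 fits that left out a replicate, with log2 differences of -0.65 to -0.36 and -0.55 to -0.35. Among them the calls were lost without hair cell control replicates 1 and 2 (Bok -0.52 and -0.36, Bcl2l12 -0.44 and -0.49) and treated replicates 1 and 2 (Bok -0.53 and -0.56, Bcl2l12 -0.46 and -0.35), for Bok also without treated replicate 3 (-0.45) and for Bcl2l12 without control replicate 3 (-0.43). Both calls were also lost with scaling by total reads (Bok -0.46, Bcl2l12 -0.38), with quantile normalization (-0.35 and -0.19) and when only the hair cell groups were fitted, that of Bok with either other read minimum, and that of Bcl2l12 with the replicate block. An offset of 0.1 moved Bok to -0.85. The median log2 difference of the 15 was -0.04, against -0.09 for all tested genes. The effector Bax, named after its values were seen, had a log2 difference of -0.04 (95% interval -0.21 to 0.13). In non-hair cells 0 of 15 met the criteria by limma, against 5.44% of all tested genes, and 2 had an unadjusted p under 0.05.

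Of 20 genes that act beside or after the family at the mitochondrion, 0 rose and 3 fell by limma in treated hair cells, against 12.7% and 14.8% of all tested genes, with a median log2 difference of -0.10, and 7 had an unadjusted p under 0.05. Apaf1, the scaffold of the apoptosome, fell from 16.3 ± 2.31 (SD, n = 3) to 11.4 ± 1.04 (SD, n = 3), at a log2 difference of -0.52, standard error 0.15, limma adjusted p = 0.0219. Casp9, the initiator caspase it activates, fell from 16.5 ± 1.43 (SD, n = 3) to 12.8 ± 1.02 (SD, n = 3), at a log2 difference of -0.37, standard error 0.10, limma adjusted p = 0.0192, and Vdac1, a channel of the outer membrane, fell from 167 ± 16.2 (SD, n = 3) to 121 ± 9.66 (SD, n = 3), at a log2 difference of -0.46, standard error 0.12, limma adjusted p = 0.0127. With scaling by total reads these 3 falls did not meet the criteria (log2 differences of -0.43, -0.28 and -0.36), nor did Apaf1 (-0.36) and Casp9 (-0.24) with quantile normalization or Casp9 when only the hair cell groups were fitted. The fall of Apaf1 was lost without control hair cell replicate 2 (-0.40) and without treated replicates 2 (-0.52) and 3 (-0.45). That of Casp9 was lost without control replicates 2 (-0.31) and 3 (-0.36) and treated replicate 2 (-0.30), and that of Vdac1 without control replicate 2 (-0.38) and treated replicate 3 (-0.39). In non-hair cells 0 of 20 met the criteria by limma, against 5.44% of all tested genes, and 4 had an unadjusted p under 0.05.

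Of 28 genes whose products modify, bind, degrade or induce members, 3 rose and 6 fell in treated hair cells, against 12.7% and 14.8% of all tested genes, with a median log2 difference of -0.05. Ddit3 (CHOP), a transcription factor of the stress response that induces Bcl2l11, rose from 26.5 ± 2.75 (SD, n = 3) to 72.8 ± 8.7 (SD, n = 3), at a log2 difference of 1.46, standard error 0.14, limma adjusted p = 5.58e-05. In non-hair cells Ddit3 fell from 29.2 ± 4.77 (SD, n = 3) to 21.6 ± 2.08 (SD, n = 3), at a log2 difference of -0.43, standard error 0.14, limma adjusted p = 0.155. Jun rose to a mean score of 1008 ± 183 (SD, n = 3) (log2 difference 1.45, standard error 0.31, limma adjusted p = 0.00536), and Mapk8, a JNK kinase that phosphorylates Jun and Bim, rose by 0.47 on the log2 scale (limma adjusted p = 0.00064). Bcl2l11 did not meet the criteria in hair cells, and a link between these genes and its level was not tested.

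Huwe1, a ubiquitin ligase that marks Mcl1 for degradation, fell from 734 ± 29.1 (SD, n = 3) to 536 ± 31.97 (SD, n = 3), at a log2 difference of -0.46, standard error 0.08, limma adjusted p = 0.0015. Akt1, a kinase that phosphorylates Bad, fell by 0.42 on the log2 scale (limma adjusted p = 0.00172). Prkaca, the catalytic subunit of protein kinase A, which also phosphorylates Bad, fell by 0.50 (limma adjusted p = 0.000199). Bag1, a co-chaperone that binds Bcl2, fell by 0.50 (limma adjusted p = 0.000205), and Mapk3, an ERK kinase, fell by 0.31 (limma adjusted p = 0.00307). Tcf3, a helix-loop-helix transcription factor, fell by 0.31 (limma adjusted p = 0.0228).

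Some of these calls depended on the scaling or on 1 replicate. Scaling by total reads took Mapk3 (-0.21) and Tcf3 (-0.21) below the criteria, and Tcf3 was also lost with median-of-ratios scaling (-0.29) and quantile normalization (-0.26). Mapk3 was lost without treated hair cell replicate 2 (-0.25). Tcf3 was lost without control replicates 1 (-0.28), 2 (-0.31) and 3 (-0.33) and treated replicates 1 (-0.31) and 2 (-0.23).

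In non-hair cells 2 of the 28 genes of this list met the criteria, against 5.44% of all tested genes. They were Ddit3 and Dynll1, a dynein light chain that holds Bim at microtubules. Dynll1 rose from 166 ± 31.9 (SD, n = 3) to 239 ± 43.4 (SD, n = 3), although the groups overlapped (log2 difference 0.52, standard error 0.16, limma adjusted p = 0.154). Its call was lost without control non-hair cell replicates 2 (0.38) and 3 (0.53) and treated replicates 1 (0.46) and 2 (0.43). The call of Ddit3 was lost without control replicates 1 (-0.44) and 2 (-0.31) and treated replicates 1 (-0.35), 2 (-0.47) and 3 (-0.48), and with scaling by total reads (-0.41). Neither call held in a fit without a trend or when only the non-hair cell groups were fitted, and that of Dynll1 was lost with no minimum of reads.

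**Figure D5:**
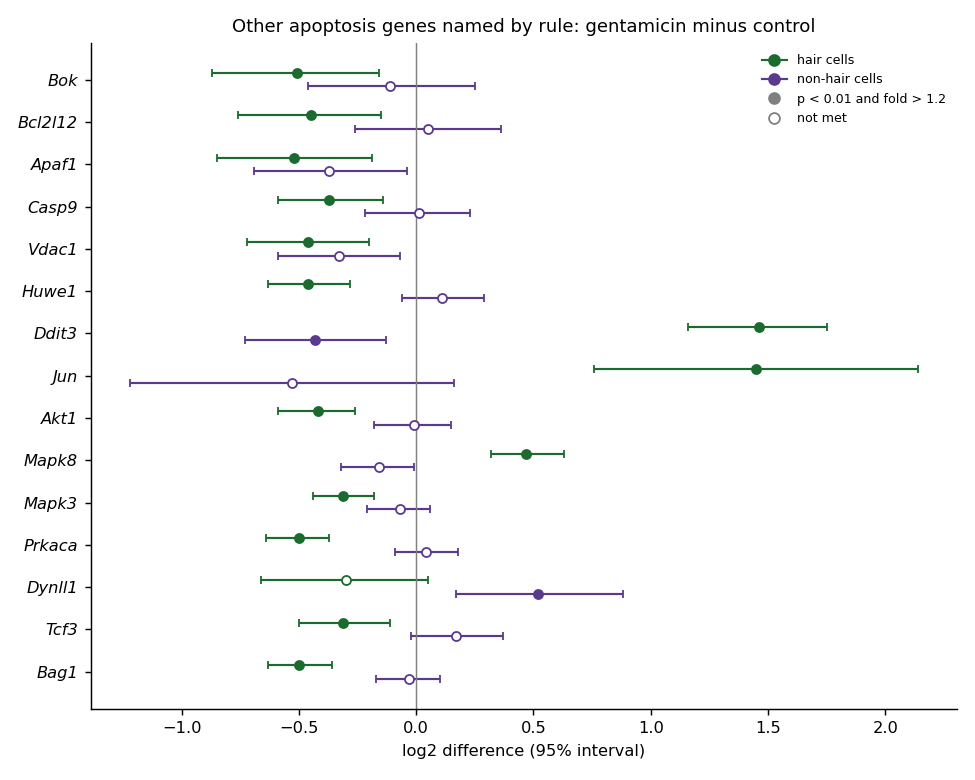
Log2 difference between gentamicin and control with its 95% interval for the 15 genes of the 3 lists that met the criteria in hair cells or in non-hair cells (n = 3 per group). Filled points met the criteria; Ddit3 and Jun lie farthest to the right in hair cells, at 1.46 and 1.45.

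The tested genes most like the members that differed in hair cells were ranked by Pearson's r of log2 scores over the 12 replicates, as a description across 3 replicates of each of the 4 groups. Mcl1 went most closely with Arf6 (r = 0.975), a small GTPase of membrane traffic, Plk3 (0.973), a stress-responsive kinase, and Sbds (0.967), a ribosome maturation factor. Bnip1 went most closely with Snhg12 (0.977) and Snhg1 (0.976), host transcripts of small nucleolar RNAs, and with Eif1 (0.962), a translation initiation factor. Bcl2l2 went most closely with Dqx1 (0.968), Tmem170b (0.956) and Oxtr (0.956), the oxytocin receptor. These correlations include the differences between the groups.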

How the data were processed

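Polyadenylated RNA of sorted hair cells and non-hair cells was sequenced in 4 groups of 3 replicates, called biological replicates in the paper. The authors trimmed single-end reads, aligned them to mm10 with TopHat2 (version not given in the sources used here) in PartekFlow, and deposited 1 normalized read score per replicate for 23420 genes. RPKM is named in the methods, but the deposited score carried no division by gene length that could be seen, and its lowest value is 1. With this offset of 1 taken off, division by the smallest step of a replicate gave whole reads, within 0.1, for 82.4–83.3% of the low values. That share was too low to treat the scores as read counts, so they were fitted on a log scale. Reads estimated in this way came to 22399316–28150715 per replicate (median 25115344). Low genes such as Bid are measured with less precision.

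Genes with fewer than 100 estimated reads over the 12 replicates were left out, which kept 16077; 2954 genes had no reads. limma 3.58.1 (R 4.3.3) was run on log2 scores, fitting the 4 groups as 1 model under a trend and empirical Bayes moderation. Contrasts were gentamicin in each population, the difference between these responses, and the populations without drug. Calls needed a fold change above 1.2 and an unadjusted p below 0.01, as in the methods of the paper. The difference between the responses was called at a Benjamini-Hochberg adjusted p under 0.05. Fold changes are on the log2(score) scale with its offset of 1, which understates changes of low genes. The procedure was tested on simulated data.

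Lengths and positions came from GENCODE M21 on GRCm38, the same assembly as mm10, and promoters from RefSeq. Tables and plots were made in Python 3.11.15 with numpy 2.4.6, pandas 2.3.3 and matplotlib 3.10.9. The alternatives were other scalings, offsets, read minimums, thresholds and models, and leaving out each replicate.

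The members and lists were chosen with earlier results of these data known. All 10 members are named in every comparison. Some genes of the pathway lists are not reported here and are not counted in them. Each other gene of the 3 lists that met the criteria with gentamicin in either population is named too, together with the 3 tested genes most correlated with each member called in treated hair cells. Bax, Hrk, Bbc3, Pmaip1, Bnip3, Bnip3l, Diablo and the genes that overlap members were added after the values were seen, as was the sum of the 5 pro-apoptotic genes.

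Replicate numbers came from the column headers of the files. Deviations from the group means correlated between same-numbered control hair cell and control non-hair cell replicates at 0.216, 0.316 and 0.2, and between the treated populations at 0.377, -0.0386 and -0.0179. For different numbers the correlations were -0.27 to -0.0548 between the control populations and -0.338 to 0.198 between the treated ones. The model took no pairing into account, and the replicate number as a block was an alternative. Whether same-numbered populations came from the same organs is not given in the sources used here. The sequencing lane of each replicate is not given in the sources used here.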

Additional observations from a re-analysis of the deposited data

Results flagged for a closer look

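The test of the difference between the responses of hair cells and non-hair cells to gentamicin called 13.4% of all tested genes. It called 2 of the 10 members. In the lists it called 9 of 28 regulators, 1 of 20 mitochondrial genes and 0 of 15 further family genes. Values are the log2 response of hair cells less that of non-hair cells. They were 0.56 for Mcl1 and 0.63 for Bnip1, with the errors and left-out replicates given above.

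Among the inducers, Jun differed by 1.97 (standard error 0.45, limma adjusted p = 0.0166) and Ddit3 by 1.88 (standard error 0.19, limma adjusted p = 0.000652). The kinase gene Mapk8 differed by 0.64 (standard error 0.10, limma adjusted p = 0.00413). These 3 genes rose in hair cells and had negative log2 differences in non-hair cells.

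The ubiquitin ligase gene Huwe1 differed by -0.57 (standard error 0.11, limma adjusted p = 0.00932), Prkaca by -0.55 (standard error 0.09, limma adjusted p = 0.00437), Tcf3 by -0.48 (standard error 0.13, limma adjusted p = 0.0305), Bag1 by -0.46 (standard error 0.09, limma adjusted p = 0.00735) and Akt1 by -0.41 (standard error 0.11, limma adjusted p = 0.0286). Dynll1, which binds Bim, differed by -0.83 (standard error 0.23, limma adjusted p = 0.0377). Diablo, named after its values were seen, met the criteria with gentamicin in neither population, and differed by -0.41 (limma adjusted p = 0.0447). Under the alternatives 7 of the 11 genes other than Diablo lost this call at least once, 3 of them only at a fold change above 1.5.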

How the results depend on the processing

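The 3 calls of members in treated hair cells, the 0 calls in treated non-hair cells and the directions of all called members held under the other scalings, offset, read minimums and models, where 3 or 4 members were called in hair cells and 0 in non-hair cells. At a fold change above 1.5 the calls in hair cells fell to 1 member and 2074 genes, those in non-hair cells to 219 genes, and the members whose responses differed to 1. Of the uncalled members, Bad turned to 0.06 in hair cells with scaling by total reads. In non-hair cells 383 genes were called when only these groups were fitted and 55 at an adjusted p under 0.05, against 875 as reported. By the longest transcript 6 of 10 members kept their rank in control hair cells. The mean Mcl1 share of the anti-apoptotic level was then 29.95% in control and 41.5% in treated hair cells and that of Bcl2l1 43.1% and 38.3%, and the mean log2 ratio of Mcl1 to Bcl2l1 turned to -0.52 in controls and was 0.12 with gentamicin, against 0.31 and 0.95. This alternative for shares and ratios was chosen after seeing the data.

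Leaving out 1 replicate gave 411–1570 genes in non-hair cells (411 without control replicate 2, 458 without treated replicate 2, 1366 without control replicate 1 and 1570 without treated replicate 3). For the difference between the responses it gave 1163–2378 genes and 1–2 members (1374 and 1163 genes without control hair cell replicates 1 and 2, 1254 without treated hair cell replicate 2, 1288 without control non-hair cell replicate 2 and 1431 without treated non-hair cell replicate 1). Members whose uncalled log2 differences changed sign were Bmf in hair cells (-0.33 to 0.07) and, in non-hair cells, Bcl2 (-0.23 to 0.13), Bcl2l1 (-0.14 to 0.02), Mcl1 (-0.15 to 0.01), Bcl2l11 (-0.03 to 0.10), Bad (-0.02 to 0.18) and Bnip1 (-0.13 to 0.02). The cause of these changes was not tested.

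Among the list genes, 12 of 14 calls in hair cells and both calls in non-hair cells were lost under at least 1 alternative, the stricter fold change included. The call of the difference between the responses was lost at least once for Mcl1, Akt1, Dynll1 and Tcf3 under a scaling, read minimum, model or left-out replicate, and for Huwe1, Prkaca and Bag1 only at the stricter fold change.

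With the replicate number as a block, 4 members and 4618 genes were called in hair cells, 0 and 878 in non-hair cells, 2 and 2306 for the difference between the responses, and 9 and 10669 between the control populations. The fourth member in hair cells was Bak1 (0.27). Same-numbered replicates correlated at 0.0369, 0.0523 and 0.0369 between control and treated hair cells and at 0.208, -0.232 and 0.683 between control and treated non-hair cells, so the numbers were not taken as pairs there. Changes of Bid rest on about 100 reads per hair cell replicate.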

Other observations

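Several relatives of the members, named after their values were seen, differed by population or varied between treated replicates. Hrk, a BH3-only gene known from neurons, had scores of 102, 100.0 and 92.1 in control hair cells and 12.4, 20.3 and 17.4 in control non-hair cells (log2 difference 2.58, standard error 0.21, limma adjusted p = 4.01e-07). With gentamicin its scores in hair cells were 94.8, 100.2 and 107 and overlapped the controls. Bbc3 (Puma) had log2 differences of -0.16 in treated hair cells and -0.34 in treated non-hair cells, and neither met the criteria. Pmaip1 (Noxa) had a mean of 3 estimated reads in control and 6 in treated hair cells, too few to compare.

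Bnip3, a mitochondrial BH3-like gene known from the response to low oxygen, had scores of 302, 319 and 264.5 in control hair cells and of 202, 150.4 and 26.2 in treated ones. In non-hair cells it had 409, 382 and 297 without the drug and 393, 36.7 and 199.9 with it. Its relative Bnip3l had 212, 208 and 214 in control hair cells and 192, 170.1 and 110.3 in treated ones. Its scores in non-hair cells were 336, 286 and 258 without the drug and 294, 155 and 204 with it. Every treated hair cell replicate of both genes lay below every control, and 54.8% of all tested genes had no overlap in this comparison. The non-hair cell groups overlapped for both. For both genes the lowest treated replicate was replicate 3 in hair cells and replicate 2 in non-hair cells. Neither gene met the criteria (limma adjusted p = 0.142 and 0.145 in hair cells, 0.433 and 0.319 in non-hair cells).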
